A study of Mus musculus with 30 samples.

Results

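C2C12 cells given 5 µM Cr(VI) for the first day of differentiation were compared with the untreated myoblasts they started from. The comparison used 6 of the 30 RNA-seq libraries of the study, which were the 3 libraries labelled 5 µM and day 1 and the 3 labelled 0 µM and day 0. C2C12 is a mouse myoblast line that divides in serum-rich medium and turns into fused, contractile myotubes when serum is lowered. The 5 µM day 1 cells were in medium with 2% horse serum to which potassium chromate, a soluble source of Cr(VI), had been added, whereas the day 0 cells had been kept in 20% fetal bovine serum without chromate. Time, medium and chromate therefore all differ between the 2 groups and cannot be told apart in that comparison alone. For this reason each change was set beside the change of the 3 libraries of 0 µM day 1, cells in the same differentiation medium without chromate, and the difference between 5 µM day 1 and 0 µM day 1 was tested directly. The question was which early steps of differentiation also took place with chromate present. All cells carry the same line's genotype, no other treatment is labelled, and the labels call the 3 replicates of a group biological replicates without saying how they were separated, so p-values measure the spread between these samples.

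When myoblasts leave serum, MyoD and Myf5, the factors that commit cells to muscle, act with MEF2 proteins to switch on myogenin. The cells leave the cell cycle under CDK inhibitors such as p21, and then make fusion proteins, sarcomere proteins and the membrane systems that couple a nerve signal to contraction. Cr(VI) enters cells as chromate through sulfate transporters and is reduced inside, a process that yields reactive intermediates, DNA adducts and oxidised thiols. Cells answer such damage with NRF2, the main switch of antioxidant and detoxifying genes, and with p53, which induces genes of growth arrest and repair.

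Each library held 18.5 to 23.4 M reads in these 6, and 18.5 to 26.9 M over the series. Values are the deposited CPM, which the authors had scaled further per library, and 1 read was worth 0.038 to 0.0584 of these scaled CPM. Replicates of the 3 groups correlated at 0.965 to 0.986. Low values were erratic, since of 11374 pairs of replicates with 11 to 20 reads in one library, 39% were listed at 0 in the other. That share includes pairs with replicate 3 of 5 µM day 1. The extra transcripts of that library, described below, can add to it, and by how much was not tested. All 8 myoblast markers were at 1 CPM or more in every library of the 3 groups, as the labelled cell type has them. Their summed level was 2421, 2644 and 2290 CPM at 5 µM day 1, 3691, 3734 and 3749 CPM at 0 µM day 1, and 1408, 1656 and 1409 CPM at day 0. Mitochondrial transcripts took 11.56, 9.82 and 9.06% of the values at 5 µM day 1, 8.21, 8.15 and 8.85% at 0 µM day 1, and 7.24, 5.92 and 6.86% at day 0.

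Replicate 3 of 5 µM day 1 stood apart. It held 185 genes at 5 CPM or more that were under 1 CPM in the other 29 libraries, together 0.324% of its values. Led by Sftpc, surfactant protein C of lung alveolar cells, at 199 CPM, and Lyz2, lysozyme of myeloid cells, at 184 CPM, these were transcripts of tissues other than muscle. The 0.324% leaves out any extra transcripts of genes that the other libraries also held. Summed over 12 lung epithelium markers, the 5 µM day 1 libraries held 3.28, 2.82 and 489 CPM, and the day 0 libraries 0.855, 1.39 and 0.365 CPM. All 12 of these markers were at 1 CPM or more in replicate 3, and in replicates 1 and 2 only Cdh1 was. Summed over 13 leukocyte markers, the 5 µM day 1 libraries held 1.24, 1.15 and 365 CPM, and the day 0 libraries 0.585, 0.0842 and 0 CPM. The same library also held more of several cell cycle transcripts and less of several muscle transcripts than replicates 1 and 2, and what part its extra transcripts have in those differences was not tested. The tests were therefore repeated without it, and calls that changed are given beside the genes and lists concerned.

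**Figure D1:**
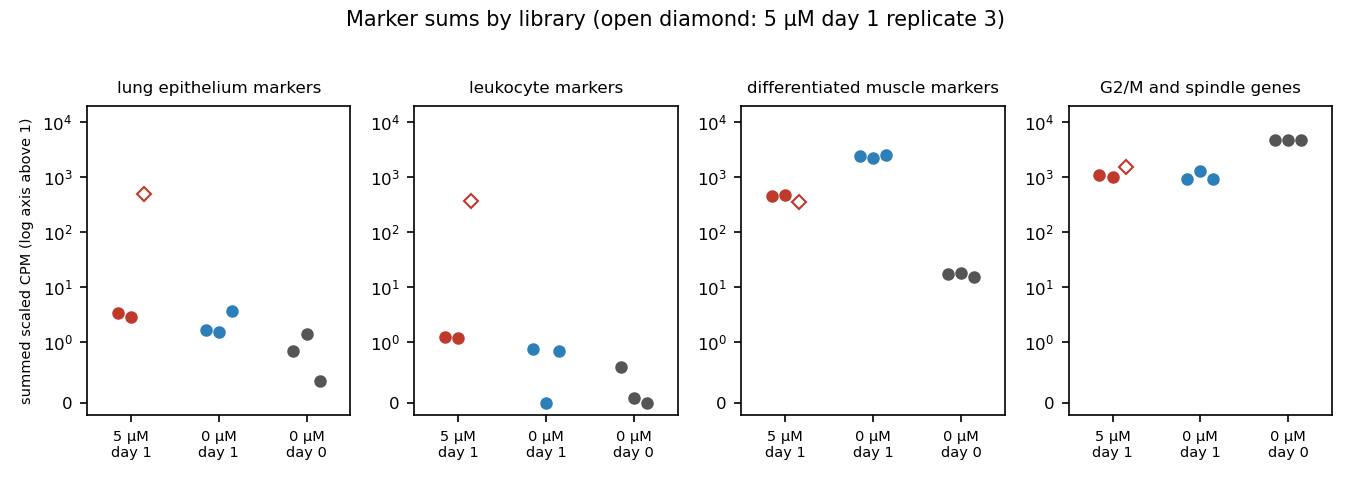
Summed scaled CPM of 4 gene lists in each library (points; the open diamond is 5 µM day 1 replicate 3), for 5 µM day 1, 0 µM day 1 and 0 µM day 0 from left to right. Lung epithelium and leukocyte markers reached 489 and 365 CPM in replicate 3 of 5 µM day 1, while the differentiated muscle markers of all 3 libraries of that group lay at 354 to 464 CPM, between day 0 and 0 µM day 1.

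Of 12946 genes tested, 3339 (25.8%) rose and 3123 (24.1%) fell at 5 µM day 1 against day 0, at an adjusted p below 0.05 in limma. Of these, 1213 (9.37%) rose and 1171 (9.05%) fell by at least 2-fold. Without replicate 3 of 5 µM day 1, 3096 (24.1%) rose and 2920 (22.7%) fell of 12862 tested. In all, 5703 genes were called in the same direction in both fits, with 0 called in opposite directions. At 0 µM day 1 against day 0, 3285 genes (25.4%) rose and 2941 (22.7%) fell. Set directly against 0 µM day 1, the 5 µM day 1 cells had 556 genes (4.29%) higher and 1218 (9.41%) lower, so fewer genes separated the day 1 groups from each other than separated either from day 0. Without replicate 3 these were 480 (3.73%) and 1041 (8.09%). The median log2 difference over all genes was 0.06 for 5 µM day 1 and 0.04 for 0 µM day 1 against day 0, and -0.01 between the day 1 groups. The shares of all genes given here are the ones to read beside the list counts below. Of the 12946 genes, 6792 had replicate values that did not overlap between 5 µM day 1 and day 0. The same held for 7033 genes between 0 µM day 1 and day 0, and for 3540 between the day 1 groups. Differences are on the log2(CPM + 1) scale, which understates the change of genes with low values. In bulk RNA, fewer cells of a type and less RNA per cell cannot be told apart.

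The 8 largest rises were those of 3 sarcomere genes (Pdlim3, Mylpf and Myl1), 3 regulators (Heyl, Rbm24 and Myog) and 2 secreted proteins (Dcn and Sepp1). Pdlim3, a Z-disc adaptor that binds alpha-actinin, had 171, 151 and 142 CPM at 5 µM day 1 against 1.26, 3.91 and 4.69 CPM at day 0, a log2 difference of 5.28 ± 0.17 (SE, adjusted p = 6.4e-23 in limma). Dcn, which codes for the collagen-binding proteoglycan decorin, had 102, 109 and 79.6 CPM against 0.72, 1.98 and 2.14 CPM at day 0 (5.26 ± 0.32, adjusted p = 9.4e-16 in limma). The groups did not overlap for either gene, and both were also high at 0 µM day 1, with means of 238 and 157 CPM. Dcn is 1 of 7 fibroblast markers, of which 4 of 6 tested rose at 5 µM day 1. They summed to 2117, 2484 and 2185 CPM at 5 µM day 1, 3585, 3042 and 3345 CPM at 0 µM day 1, and 720, 753 and 721 CPM at day 0, with Col3a1, a collagen that myoblasts also make, the highest in every library. Thy1, a defining marker, was listed at 0 in all of these libraries but replicate 3 of 5 µM day 1, where it had 1.48 CPM, and the part of such cells in the result was not tested. Sepp1, the selenium carrier selenoprotein P, had 82.1, 70.5 and 109 CPM at 5 µM day 1 against 2.16, 5.43 and 3.18 CPM at day 0 (4.30), with 79.1 CPM on average at 0 µM day 1. Its levels at 5 and 0 µM on day 1 were not separated (difference 0.12 ± 0.29, adjusted p = 0.84 in limma).

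The largest falls were those of enzymes, receptors and secreted factors of the growing myoblast. Bcat1, which starts the breakdown of branched-chain amino acids, had 8.19, 7.57 and 5.42 CPM at 5 µM day 1 against 170, 185 and 181 CPM at day 0. It fell by 4.49 ± 0.24 on the log2 scale (adjusted p = 3.7e-17 in limma). Lgr6, a receptor for R-spondins, had 8.66, 6.05 and 9.63 CPM against 201, 176 and 184 CPM at day 0. All 5 µM libraries were far below all day 0 libraries for both genes. Prl2c2, a proliferin whose reads may be shared with near-identical copies, fell by 4.10, and the neurotrophin receptor gene Ngfr by 4.04. The natriuretic peptide clearance receptor Npr3 fell by 3.98, Serpinb2, an inhibitor of urokinase, by 3.96, and Aldh1l2, a mitochondrial folate enzyme, by 3.84. Bcat1 was also lower at 5 µM than at 0 µM on day 1 (-1.10 ± 0.24, adjusted p = 0.0012 in limma), and Aldh1l2 was so in edgeR (-0.76, adjusted p = 0.044) but not in limma (-0.66, adjusted p = 0.061).

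Of 16 myogenic transcription factors and cofactors tested, 10 rose and 3 fell at 5 µM day 1, with a median log2 difference of 0.85. At 0 µM day 1, 11 rose and 0 fell, with a median of 0.88. Myog, which codes for myogenin, the factor that drives terminal differentiation, had 82.8, 90.8 and 57.8 CPM at 5 µM day 1 against 2.25, 3.2 and 3.86 CPM at day 0. It rose by 4.25 ± 0.13 (SE, adjusted p = 6.3e-24 in limma), and by 4.44 without replicate 3. With 412, 407 and 436 CPM, 0 µM day 1 lay higher than any 5 µM day 1 library, and the difference between the day 1 groups was -2.45 ± 0.13 (adjusted p = 2.5e-16 in limma). Rbm24, an RNA-binding splicing factor of muscle, had 24.6, 29.5 and 34 CPM at 5 µM day 1, 89.1 CPM on average at 0 µM day 1 and 0.225, 0.168 and 0.834 CPM at day 0. Its rise against day 0 was 4.45 and its shortfall against 0 µM day 1 was -1.57. Mef2a, a MEF2 factor that myoblasts already make, had 229, 200 and 202 CPM at 5 µM day 1 against 92.6, 85.1 and 108 CPM at day 0 (1.14, adjusted p = 9.7e-12 in limma). It averaged 313 CPM at 0 µM day 1 (-0.57 between the day 1 groups).

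The 3 factors that fell were Mef2c, Tead4 and Myod1. Mef2c, the MEF2 gene induced late in differentiation, had 2.99, 3.56 and 2.33 CPM at 5 µM day 1, 14.1, 9.9 and 11.3 CPM at 0 µM day 1, and 8.86, 6.52 and 6.25 CPM at day 0. It fell by 1.05 ± 0.14 at 5 µM (adjusted p = 2.2e-07 in limma) and rose by 0.64 at 0 µM (adjusted p = 0.00041 in limma), with no overlap between any of the 3 groups. Tead4, a TEA-domain factor that binds muscle promoters, had 6.78, 6.99 and 5.94 CPM at 5 µM day 1, 20.6, 24.7 and 18.2 CPM at 0 µM day 1, and 12.2, 12.5 and 8.75 CPM at day 0. It also fell at 5 µM (-0.67, adjusted p = 0.00031 in limma) and rose at 0 µM (0.87, adjusted p = 8.6e-06 in limma). Myod1, which codes for MyoD, had 77.3, 88.4 and 68.9 CPM at 5 µM day 1 against 105, 111 and 104 CPM at day 0. It fell by 0.45 (adjusted p = 0.00053 in limma), while its mean at 0 µM day 1 was 118 CPM (0.14, adjusted p = 0.29 in limma). Myf5, the other commitment factor, rose, with 99.3, 96.2 and 94.5 CPM at 5 µM day 1 against 49.9, 51.1 and 62.4 CPM at day 0 (0.82, adjusted p = 5e-07 in limma). It averaged 64.3 CPM at 0 µM day 1. The 5 µM day 1 cells thus had lower Myod1 (-0.59) and higher Myf5 (0.60) than 0 µM day 1, both at an adjusted p below 0.05 in limma.

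**Figure D2:**
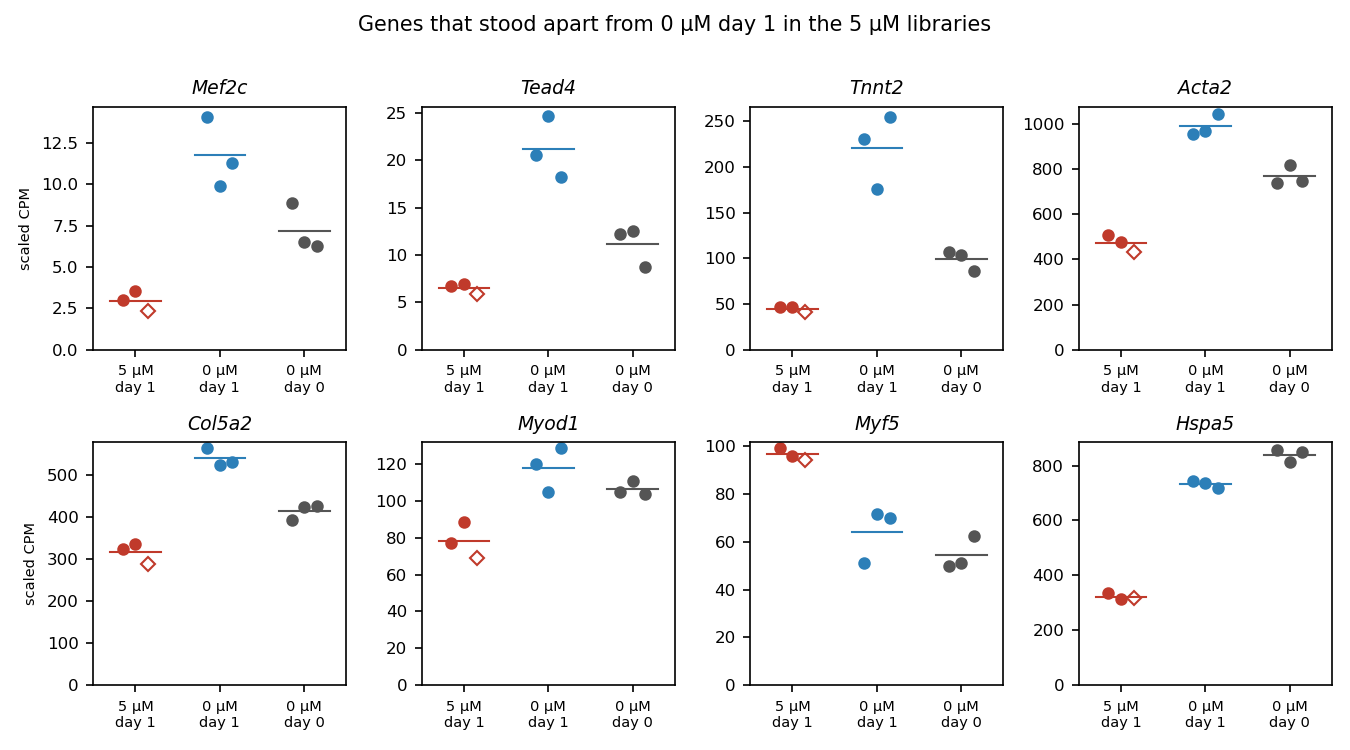
Scaled CPM of 8 genes in each library on linear axes from 0, for 5 µM day 1, 0 µM day 1 and 0 µM day 0 from left to right; bars are group means and the open diamond is 5 µM day 1 replicate 3. Mef2c, Tead4, Tnnt2, Acta2 and Col5a2 lay below day 0 at 5 µM and above it at 0 µM, Myf5 was highest at 5 µM, and Myod1 and Hspa5 were lowest there.

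Inhibitors of the myogenic factors rose and fell against day 0 in similar numbers in the 2 day 1 groups, but some were lower at 5 µM. Of 17 tested genes that restrain myogenic factors, 7 rose and 6 fell at 5 µM day 1 (median 0.33), and 7 rose and 5 fell at 0 µM day 1 (median 0.36). Compared directly, 5 were lower and 1 was higher at 5 µM than at 0 µM on day 1 (4 and 2 without replicate 3). Of all genes, 9.41% were lower and 4.29% higher. Hes1, a member of this list, fell by 0.63 at 5 µM day 1 and was lower than at 0 µM day 1 (-0.60, adjusted p = 0.0026 in limma). Id3, one of the ID proteins that sequester the partners of MyoD, had 16.8, 14.5 and 15.8 CPM at 5 µM day 1 against 221, 238 and 197 CPM at day 0. It fell by 3.72 ± 0.22 (adjusted p = 1e-15 in limma). Id1 had 15.1, 14.6 and 10.4 CPM against 100, 111 and 87.4 CPM at day 0, and Id2 had 13, 14.8 and 21.8 CPM against 132, 130 and 132 CPM at day 0. In each case all 5 µM libraries lay far under all day 0 libraries. None of the 3 differed between 5 and 0 µM on day 1 at an adjusted p below 0.05 in limma, with differences of -0.59 ± 0.22 for Id3, -0.16 ± 0.21 for Id1 and -0.25 ± 0.20 for Id2. Heyl, a HES-family repressor and Notch target, was among the largest rises of all genes, with 42.7, 53.8 and 39.6 CPM at 5 µM day 1, 86.6 CPM on average at 0 µM day 1 and 1.12, 0.757 and 0.625 CPM at day 0 (4.66). Heyl was lower at 5 µM than at 0 µM on day 1 (-0.93, adjusted p = 6.2e-06 in limma). Of the Notch pathway, 5 of 14 tested genes rose and 2 fell (median 0.21), and at 0 µM day 1, 7 rose and 1 fell. Over all genes, 25.8% rose and 24.1% fell at 5 µM day 1. Between the day 1 groups, 5 Notch pathway genes were lower and 0 higher at 5 µM (4 lower without replicate 3). Dll1, a Notch ligand, had 14.4, 16.5 and 15 CPM at 5 µM day 1 against 2.02, 0.505 and 0.0521 CPM at day 0 (3.27). It averaged 14.8 CPM at 0 µM day 1.

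Genes of fusion and adhesion divided. Of 17 tested, 6 rose and 7 fell at 5 µM day 1 (median 0.10), against 12 that rose and 2 that fell at 0 µM day 1 (median 0.69). Between the day 1 groups, 12 were lower and 0 higher at 5 µM (median -0.57), where 9.41% of all genes were lower. The count of those that fell was 4 without replicate 1 of 5 µM day 1 and 4 without replicate 3 of day 0. Both genes of the fusion machinery proper rose. Tmem8c, the older symbol of myomaker, the membrane protein needed for fusion, had 46.2, 42.1 and 38.4 CPM at 5 µM day 1, 165 CPM on average at 0 µM day 1 and 2.16, 0.968 and 1.09 CPM at day 0 (4.20 ± 0.12, adjusted p = 8.7e-25 in limma). Gm7325, the older name of myomixer, its small partner, had 8.4, 4.3 and 4.57 CPM at 5 µM day 1 against 0.09, 0.0421 and 0.104 CPM at day 0 (2.60). Both lay below 0 µM day 1, by -1.93 and -1.82. The laminin receptor gene Itga7 had 601, 664 and 567 CPM at 5 µM day 1 against 248, 295 and 249 CPM at day 0 (1.21). Cdh15, M-cadherin, had 352, 364 and 341 CPM at 5 µM day 1 against 170, 186 and 158 CPM at day 0 (1.04). The tetraspanins Cd9 and Cd81 rose by 0.62 and 0.88, and unlike the other 4 were not separated from 0 µM day 1 (0.08 ± 0.10, adjusted p = 0.67, and 0.10 ± 0.07, adjusted p = 0.42, in limma). Adam12, a metalloprotease of myoblast surfaces, had 0, 0.736 and 1.85 CPM at 5 µM day 1, 7.79, 4.17 and 4.16 CPM at 0 µM day 1 and 15.3, 13.8 and 19.2 CPM at day 0 (-3.32, adjusted p = 1e-06 in limma), the lowest group being 5 µM day 1.

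Sarcomere genes rose at 5 µM day 1 to levels short of unexposed cells. Of 19 thick filament and M-band genes tested, 10 rose and 0 fell at 5 µM day 1 (median 0.43), and 12 rose and 0 fell at 0 µM day 1 (median 2.43). Of 18 thin filament genes, 13 rose and 3 fell at 5 µM day 1 (median 1.57), and 16 rose and 1 fell at 0 µM day 1 (median 3.72). Of 21 genes of the Z-disc, titin and assembly factors, 17 rose and 0 fell at 5 µM day 1 (median 0.93, and 14 rose without replicate 3), and 17 rose and 0 fell at 0 µM day 1 (median 2.44). Set against 0 µM day 1 directly, 12 thick filament, 17 thin filament and 14 Z-disc genes were lower at 5 µM and 0 were higher in limma, with medians of -0.96, -2.0 and -0.94. Of all genes, 9.41% were lower in that comparison. In edgeR, 1 thick filament gene was higher and 13 were lower (median -2.12). The log2(CPM + 1) scale shrinks the change of genes with low values, and medians against day 0 were larger in edgeR on the recovered reads. They were 2.55 at 5 µM and 3.58 at 0 µM for thick filament genes, 3.02 at 5 µM and 5.41 at 0 µM for thin filament genes, and 2.23 at 5 µM and 3.71 at 0 µM for Z-disc genes.

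Mylpf, a fast regulatory myosin light chain, had 123, 131 and 95.3 CPM at 5 µM day 1, 479, 493 and 559 CPM at 0 µM day 1, and 3.01, 3.83 and 2.92 CPM at day 0. Its rise against day 0 was 4.78 ± 0.11 (adjusted p = 9.6e-27 in limma) and its difference from 0 µM day 1 was -2.13 ± 0.11 (adjusted p = 2.7e-16 in limma). Acta1, skeletal alpha-actin, had 115, 123 and 98.3 CPM at 5 µM day 1, 703, 602 and 727 CPM at 0 µM day 1, and 5.31, 5.3 and 5.05 CPM at day 0 (4.18 against day 0 and -2.59 between the day 1 groups). Replicates were tight, and the 3 groups formed 3 separate levels for both genes. Actc1, the actin of heart and developing muscle, had 49.4, 43.9 and 34.7 CPM at 5 µM day 1 against 2.61, 2.1 and 0.886 CPM at day 0 (3.97). It averaged 358 CPM at 0 µM day 1. Myh3, the embryonic myosin heavy chain, had 12.6, 12.4 and 9.07 CPM at 5 µM day 1, 113, 89.3 and 109 CPM at 0 µM day 1, and 0.72, 1.18 and 0.625 CPM at day 0. It rose by 2.74 ± 0.16 (adjusted p = 1e-15 in limma) and lay 3.09 on the log2 scale under 0 µM day 1 (difference -3.09 ± 0.16, adjusted p = 3.9e-16 in limma). Myl1, an essential light chain, had 57.7, 46.5 and 38 CPM at 5 µM day 1 against 1.57, 1.14 and 0.938 CPM at day 0. It averaged 118 CPM at 0 µM day 1 (-1.32 between the day 1 groups). The troponins Tnnt3, Tnnc2 and Tnni2, which place calcium control on the thin filament, rose by 3.03, 3.43 and 3.65 at 5 µM day 1.

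Tnnt2, the troponin T of heart and immature muscle, was an exception among troponins. It had 46.4, 46.7 and 41.8 CPM at 5 µM day 1, 231, 176 and 255 CPM at 0 µM day 1, and 107, 104 and 85.8 CPM at day 0. Each group kept to its own range, and 5 µM day 1 was the lowest. Against day 0 the gene fell by 1.11 ± 0.11 at 5 µM (adjusted p = 1e-10 in limma) and rose by 1.14 at 0 µM (adjusted p = 5.9e-11 in limma), and the difference between the day 1 groups was -2.25 ± 0.11 (adjusted p = 2.8e-17 in limma). The tropomyosin genes Tpm1 and Tpm3, which are also part of the cytoskeleton of myoblasts, fell by 0.34 and 0.83 at 5 µM day 1, and Tpm3 fell by 0.69 at 0 µM day 1 as well.

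Titin and the Kelch proteins that help assemble the sarcomere rose too. Klhl40, which stabilises nebulin, had 7.97, 8.75 and 6.1 CPM at 5 µM day 1 against 0.315, 0.0421 and 0.0521 CPM at day 0 (2.92). It was not separated from 0 µM day 1 (10.5 CPM on average, difference -0.43 ± 0.18, adjusted p = 0.13 in limma). Ttn, titin, the molecular spring, had 29, 37.6 and 36.9 CPM at 5 µM day 1 against 4.23, 3.53 and 3.23 CPM at day 0 (2.92). It averaged 66.3 CPM at 0 µM day 1 (-0.91). Klhl41, another Kelch protein of the sarcomere, had 33.1, 26.8 and 16.8 CPM at 5 µM day 1 against 2.02, 1.51 and 1.04 CPM at day 0 (3.36). It averaged 117 CPM at 0 µM day 1 (-2.20).

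**Figure D3:**
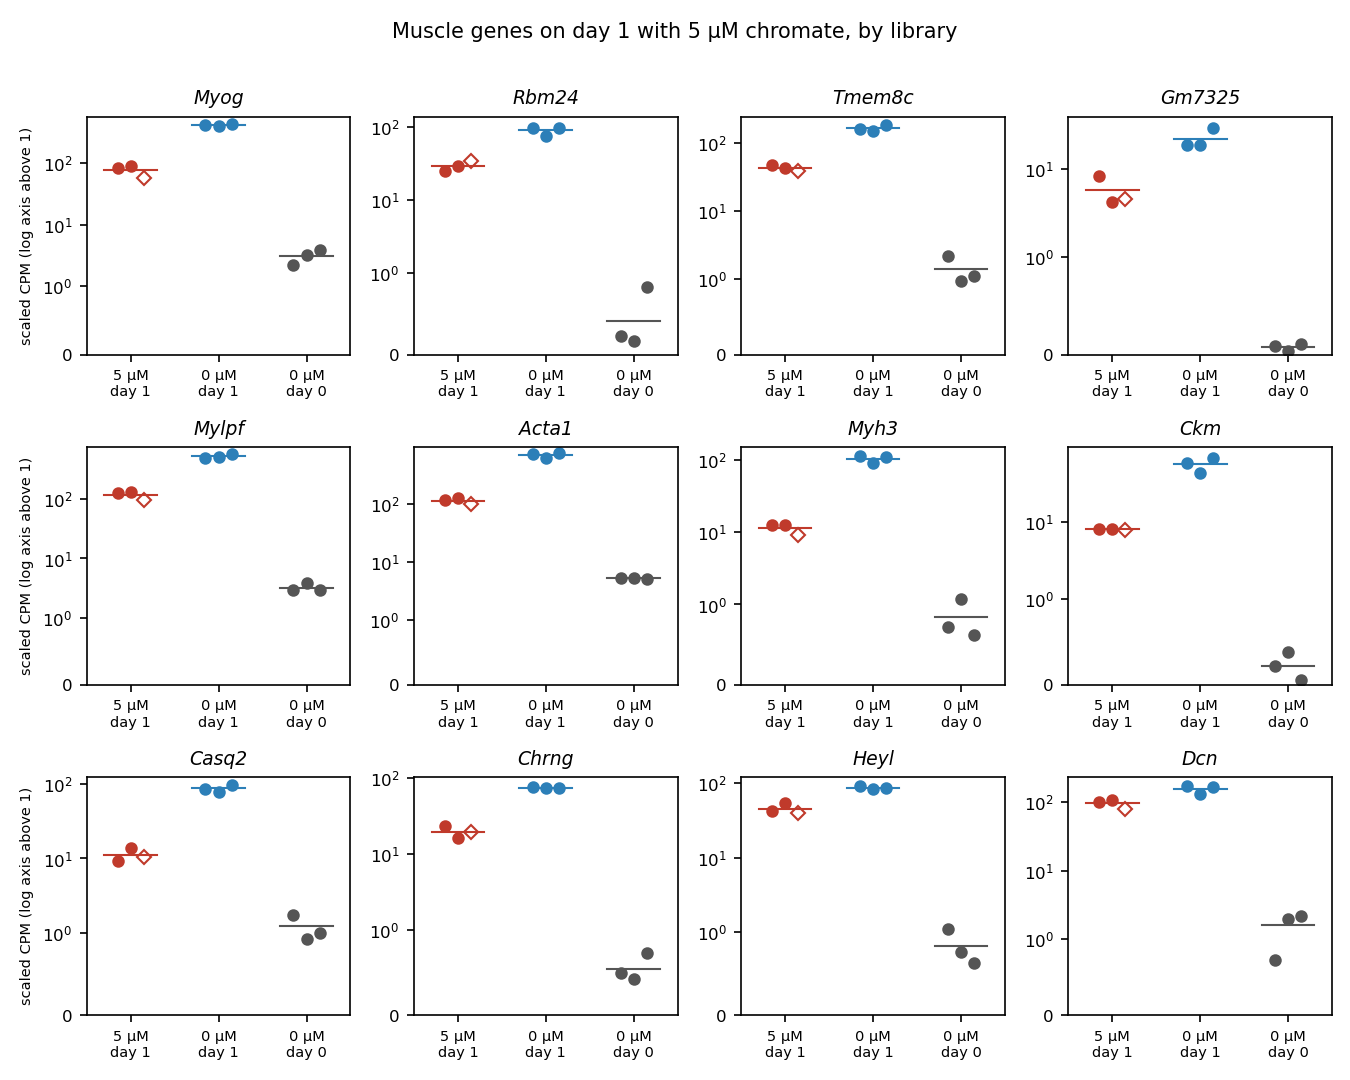
Scaled CPM of 12 genes in each library on a log axis, for 5 µM day 1, 0 µM day 1 and 0 µM day 0 from left to right; bars are group means and the open diamond is 5 µM day 1 replicate 3. Myog, Mylpf, Acta1 and Myh3 at 5 µM day 1 lay above every day 0 library and below every 0 µM day 1 library.

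Membrane and calcium systems showed the same kind of intermediate level. Of 18 genes of excitation-contraction coupling and the calcium store, 13 rose and 1 fell at 5 µM day 1 (median 1.09), and 15 rose and 0 fell at 0 µM day 1 (median 2.78). In edgeR these medians were 2.03 at 5 µM and 3.25 at 0 µM. Against 0 µM day 1, 16 were lower and 0 higher at 5 µM (median -1.12, and -1.74 in edgeR). Casq2, a calsequestrin that binds calcium in the store, had 9.38, 13.9 and 10.6 CPM at 5 µM day 1, 87.7, 78.6 and 97.9 CPM at 0 µM day 1, and 1.75, 0.926 and 0.99 CPM at day 0. It rose by 2.47 and lay below 0 µM day 1 (-2.86 ± 0.14, adjusted p = 3.1e-17 in limma). Cacna1s, the voltage sensor of the transverse tubule, had 2.56, 1.06 and 1.65 CPM at 5 µM day 1 against 0.99, 0.0842 and 0.208 CPM at day 0 (0.97, adjusted p = 0.00021 in limma). It averaged 17 CPM at 0 µM day 1. Among these genes the pump of fast muscle, Atp2a1, rose by 2.39, while Atp2a2, the pump used by myoblasts, had 240, 294 and 252 CPM at 5 µM day 1 against 393, 388 and 382 CPM at day 0 (-0.57, adjusted p = 5e-07 in limma). Atp2a2 averaged 400 CPM at 0 µM day 1, with no call against day 0 (0.04, adjusted p = 0.71 in limma).

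Of 12 genes of the neuromuscular junction, 8 rose and 0 fell at 5 µM day 1 (median 0.68), and 9 rose and 0 fell at 0 µM day 1 (median 1.18). Between the day 1 groups, 6 were lower and 0 higher at 5 µM (median -0.42, and 4 lower without replicate 3), where 9.41% of all genes were lower. Chrng, the gamma subunit of the fetal acetylcholine receptor, had 22.9, 16.2 and 19.1 CPM at 5 µM day 1 against 0.495, 0.421 and 0.729 CPM at day 0 (3.71 ± 0.11, adjusted p = 5.4e-24 in limma). It averaged 73.3 CPM at 0 µM day 1 (-1.88). Chrna1, the alpha subunit, had 804, 831 and 714 CPM at 5 µM day 1 against 405, 446 and 432 CPM at day 0 (0.87). It averaged 991 CPM at 0 µM day 1 (-0.34, adjusted p = 0.0035 in limma). Lrp4, the agrin receptor, had 59.9, 74 and 62 CPM at 5 µM day 1 against 10.7, 11.6 and 14.7 CPM at day 0 (2.32), and its levels at 5 and 0 µM on day 1 were not separated (-0.09 ± 0.15, adjusted p = 0.78 in limma).

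Of 16 genes of muscle energy supply, 9 rose and 1 fell at 5 µM day 1 (median 0.44), a count that was 5 with a pseudocount of 5, and 11 rose and 1 fell at 0 µM day 1 (median 1.25). In edgeR these medians were 2.03 at 5 µM and 4.34 at 0 µM. Between the day 1 groups, 8 were lower and 0 higher at 5 µM in limma (median -0.69, and 9 lower without replicate 3), where 9.41% of all genes were lower. Ckm, the muscle creatine kinase, had 8.27, 8.26 and 8.02 CPM at 5 µM day 1, 59.6, 43.2 and 68.1 CPM at 0 µM day 1, and 0.225, 0.379 and 0.0521 CPM at day 0 (2.92 against day 0 and -2.63 between the day 1 groups). Ppargc1a, PGC-1alpha, a coactivator of mitochondrial biogenesis, had 3.84, 3.19 and 2.89 CPM at 5 µM day 1 against 0.09, 0 and 0 CPM at day 0 (2.06, adjusted p = 2e-05 in limma), and 3.78, 1.11 and 3.49 CPM at 0 µM day 1. The gene that fell was Eno3, the muscle enolase, with 241, 242 and 200 CPM at 5 µM day 1 against 473, 478 and 461 CPM at day 0 (-1.05). It averaged 368 CPM at 0 µM day 1. All 13 mitochondrially encoded genes rose at 5 µM day 1 (median 0.62), against 8 at 0 µM day 1 (median 0.38). Directly compared, 2 were higher at 5 µM than at 0 µM on day 1, and 5 without replicate 3. Of 18 genes of glycolysis and hypoxia, 4 rose and 8 fell (median -0.27), with 7 that rose after quantile normalization, and 5 rose and 9 fell at 0 µM day 1. Of all genes, 25.8% rose and 24.1% fell at 5 µM day 1.

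**Figure D4:**
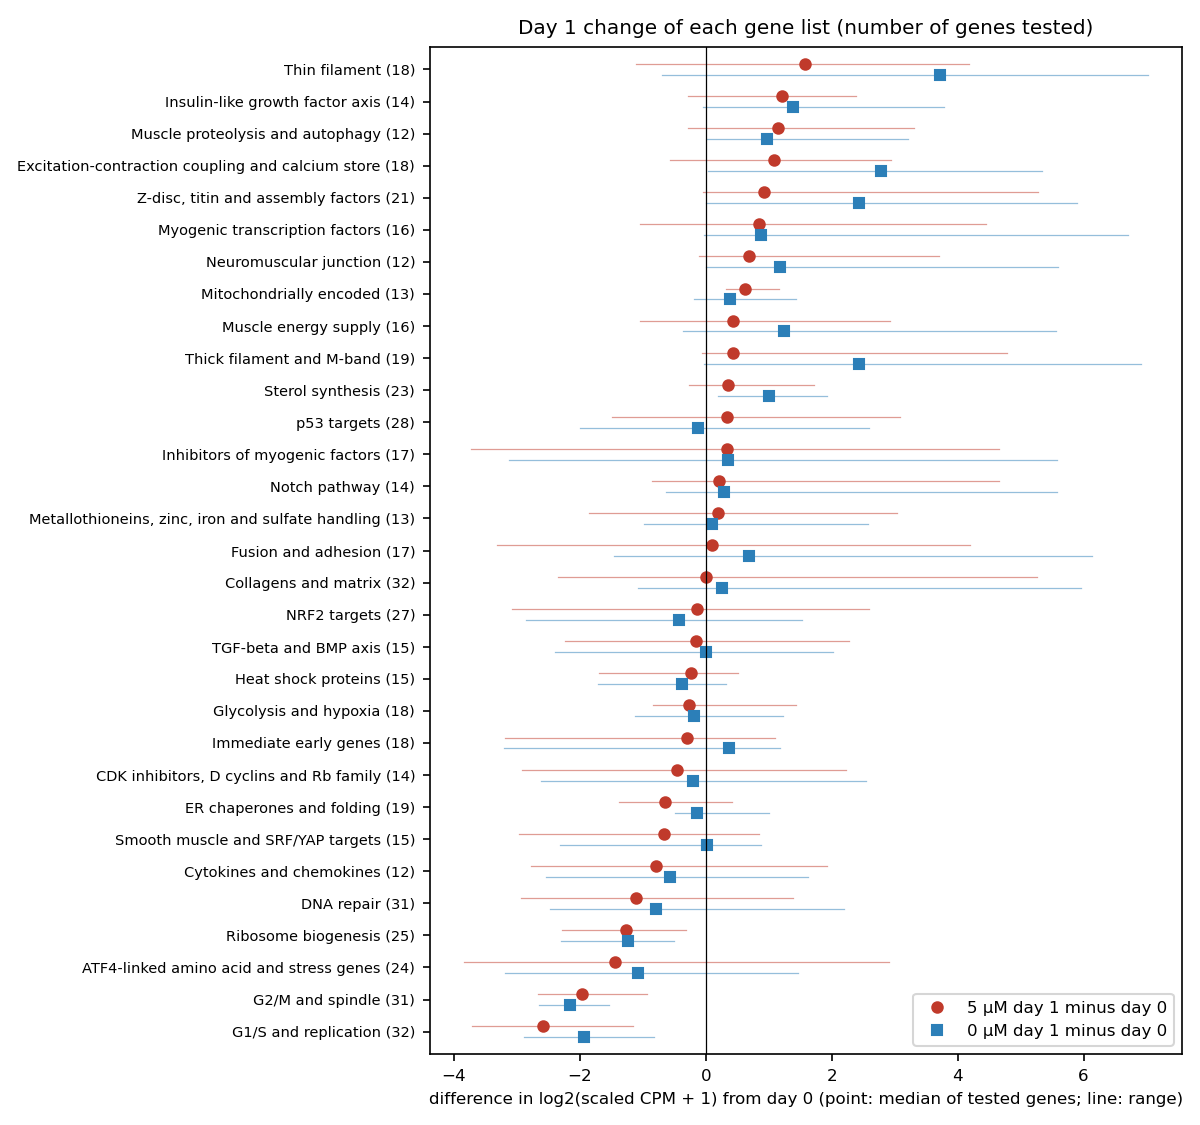
Median log2 difference from day 0 (points) and range (lines) over the tested genes of 31 lists, for 5 µM day 1 (red circles) and 0 µM day 1 (blue squares). The sarcomere lists had lower medians at 5 µM (0.43 to 1.57) than at 0 µM (2.43 to 3.72), while both day 1 groups were below 0 for replication, G2/M and ribosome biogenesis genes.

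Genes of cell division fell at 5 µM day 1. All 32 tested genes of the G1/S transition and replication fell at 5 µM day 1 (median -2.58), as did all 32 at 0 µM day 1 (median -1.93), against 24.1% and 22.7% of all genes. Their summed level was 625, 611 and 929 CPM at 5 µM day 1, 992, 1160 and 998 CPM at 0 µM day 1, and 3969, 4050 and 4016 CPM at day 0. Of the 32, 18 were lower and 0 higher at 5 µM than at 0 µM on day 1 (median -0.62). Mcm5, a subunit of the replicative helicase, had 11, 16.6 and 33.1 CPM at 5 µM day 1, 28.4, 37.2 and 29 CPM at 0 µM day 1, and 176, 201 and 200 CPM at day 0. Its difference between the day 1 groups was -0.74 (adjusted p = 0.03 in limma), and -1.15 without replicate 3. In edgeR it missed the threshold (-0.63, adjusted p = 0.085). Ccne2, cyclin E2, had 1.88, 2.66 and 24.8 CPM at 5 µM day 1 against 77.4, 88.9 and 78.2 CPM at day 0. It fell by 3.67, or fell by 4.67 without replicate 3. In both genes replicate 3 was the highest 5 µM library, and Ccne2 was lower than 0 µM day 1 only without it (-1.15, adjusted p = 0.066, and -2.14 without it, adjusted p = 3.6e-07, in limma).

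Genes of G2/M and the spindle fell as well, 31 of 31 at 5 µM day 1 (median -1.97) and 31 of 31 at 0 µM day 1 (median -2.16). Between the day 1 groups, 2 were higher and 0 lower at 5 µM in limma (median 0.17), 6 were higher and 0 lower in edgeR, and 1 was higher and 2 lower in limma without replicate 3. Top2a, the topoisomerase that untangles sister chromatids, had 57.5, 64.3 and 149 CPM at 5 µM day 1 against 526, 460 and 481 CPM at day 0 (-2.56, and -2.98 without replicate 3). Mki67, the proliferation marker Ki-67, had 8.36, 7.77 and 91.8 CPM at 5 µM day 1, 11.3, 12.9 and 7.73 CPM at 0 µM day 1, and 47.8, 44.4 and 46.2 CPM at day 0. Replicate 3 was above every day 0 library for Mki67 and the other 5 µM libraries were below them all. The fall of Mki67 was 1.26 ± 0.50 (adjusted p = 0.035 in limma) with replicate 3 and 2.38 (adjusted p = 1e-06 in limma) without it, and in edgeR with replicate 3 it was not called (-0.33, adjusted p = 0.66). Plk1, the mitotic polo kinase, did not depend on that library, with 20, 20.9 and 24.5 CPM at 5 µM day 1 against 130, 140 and 130 CPM at day 0 (-2.56).

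Among 14 CDK inhibitors, D cyclins and Rb proteins, 6 rose and 7 fell at 5 µM day 1, and 6 rose and 7 fell at 0 µM day 1. Over all genes, 25.8% rose and 24.1% fell at 5 µM day 1. Cdkn1a, p21, the inhibitor that stops cycling myoblasts, had 578, 582 and 507 CPM at 5 µM day 1, 664, 658 and 734 CPM at 0 µM day 1, and 151, 157 and 137 CPM at day 0. It rose by 1.90 ± 0.09 (adjusted p = 1.6e-18 in limma). Its level was lower at 5 µM than at 0 µM on day 1 (-0.30, adjusted p = 0.019 in limma), a call lost without replicate 3 (-0.24, adjusted p = 0.11). Cdkn1c, p57, rose by 2.23 and Cdkn1b, p27, by 1.22. Ccnd1, cyclin D1, the serum-driven cyclin, had 81.6, 74.9 and 81.3 CPM at 5 µM day 1 against 622, 601 and 601 CPM at day 0 (-2.92). The gene was not separated from 0 µM day 1 (98.3 CPM on average, -0.30 ± 0.11, adjusted p = 0.064 in limma). Rb1, the retinoblastoma gene, had 72.7, 47.7 and 45.9 CPM at 5 µM day 1 against 35.7, 28 and 32.4 CPM at day 0 (0.75). It averaged 102 CPM at 0 µM day 1 (-0.90, adjusted p = 5.5e-06 in limma).

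Genes of ribosome production fell in both day 1 groups. All 25 tested genes of ribosome biogenesis fell at 5 µM day 1 (median -1.27, and 24 without replicate 3), and all 25 fell at 0 µM day 1 (median -1.24). Nop56, a core protein of box C/D snoRNPs that guide methylation of ribosomal RNA, had 44.1, 37.8 and 41.8 CPM at 5 µM day 1, 39.9, 39.9 and 39.8 CPM at 0 µM day 1, and 179, 155 and 176 CPM at day 0. Ncl, nucleolin, had 516, 572 and 540 CPM at 5 µM day 1 against 1305, 1110 and 1226 CPM at day 0 (-1.16). The day 1 groups were not separated for either gene (0.04 ± 0.10, adjusted p = 0.83, and 0.21 ± 0.11, adjusted p = 0.23, in limma). Myc, which drives ribosome production, had 13.9, 12.2 and 13.5 CPM at 5 µM day 1 against 37.6, 52.5 and 40.2 CPM at day 0 (-1.63). It averaged 13 CPM at 0 µM day 1.

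NRF2 targets differed from unexposed day 1 cells more than they rose above the myoblast. Of 27 NRF2 targets tested, 8 rose and 13 fell at 5 µM day 1 against day 0 (median -0.14), and 5 rose and 16 fell at 0 µM day 1 (median -0.43). Set against 0 µM day 1, however, 14 were higher at 5 µM and 0 lower (median 0.54), where 4.29% of all genes were higher. Of these 14, 7 fell and 5 rose at 5 µM day 1 against day 0. What part a smaller fall from day 0 has in the difference was not tested. The summed level of the list was 8280, 8401 and 7356 CPM at 5 µM day 1, 4768, 5521 and 4933 CPM at 0 µM day 1, and 9072, 9815 and 9105 CPM at day 0. Nqo1, the quinone reductase often used as the marker of NRF2, had 45.1, 41.5 and 40.8 CPM at 5 µM day 1, 20.4, 31.2 and 20.6 CPM at 0 µM day 1, and 153, 160 and 139 CPM at day 0. It fell by 1.80 ± 0.19 against day 0 (adjusted p = 1.3e-09 in limma) and was higher than at 0 µM on day 1 (0.82 ± 0.19, adjusted p = 0.0029 in limma). Hmox1, heme oxygenase 1, had 47.8, 55.5 and 52.3 CPM at 5 µM day 1, 35.2, 33.1 and 35.3 CPM at 0 µM day 1, and 73.3, 87.1 and 67.8 CPM at day 0, the same order of groups. Ftl1, the ferritin light chain, averaged 2998 ± 238 CPM at 5 µM day 1, 1530 ± 180 CPM at 0 µM day 1, and 4458 ± 392 CPM at day 0 (SD, n = 3 each).

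A smaller set of NRF2 targets did exceed the myoblast. Sqstm1, p62, an autophagy receptor that also releases NRF2 from its inhibitor, had 1292, 1456 and 1290 CPM at 5 µM day 1, 626, 647 and 637 CPM at 0 µM day 1, and 459, 534 and 459 CPM at day 0. It rose by 1.48 ± 0.08 (adjusted p = 8.9e-17 in limma) and was above 0 µM day 1 by 1.08 (adjusted p = 2.8e-12 in limma). Ephx1, an epoxide hydrolase, had 257, 270 and 223 CPM at 5 µM day 1, 121, 149 and 134 CPM at 0 µM day 1, and 93.1, 89.8 and 95.6 CPM at day 0 (1.42). For both, the 3 groups did not overlap and 5 µM day 1 was highest. Aldh3a1, an aldehyde dehydrogenase, rose by 2.60, Gstm1, a glutathione transferase, by 1.70, and Tkt, transketolase of the pentose phosphate pathway, by 0.86, and each was also higher at 5 µM than at 0 µM on day 1 (1.06, 0.61 and 1.11). At 0 µM day 1, Aldh3a1 and Gstm1 rose by 1.53 and 1.09, and Tkt was not called (-0.24, adjusted p = 0.33 in limma). Cat, Blvrb and Cbr1 rose at 5 µM day 1 by 0.48, 0.92 and 0.91. They were not separated from 0 µM day 1 (0.25, 0.32 and 0.48, adjusted p = 0.17, 0.43 and 0.14 in limma). Slc7a11, the cystine importer, fell, with 0.0426, 0.736 and 2.21 CPM at 5 µM day 1 against 16.8, 10.7 and 15.6 CPM at day 0, and 1.04, 1.91 and 0.546 CPM at 0 µM day 1.

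Of 13 tested genes of metallothionein, zinc, iron and sulfate handling, 5 rose and 4 fell at 5 µM day 1 (median 0.19), and 2 rose and 3 fell at 0 µM day 1 (median 0.10). Over all genes, 25.8% rose and 24.1% fell at 5 µM day 1, so these counts do not set the list apart. Mt1 and Mt2, the metal-binding metallothioneins, had 212, 235 and 218 CPM and 218, 247 and 193 CPM at 5 µM day 1, against 94.1, 96.1 and 88.6 CPM and 62.6, 77.4 and 63.8 CPM at day 0. They rose by 1.24 (adjusted p = 0.00013 in limma) and 1.68 (adjusted p = 8.1e-05 in limma). Their differences from 0 µM day 1 missed the threshold (0.68 ± 0.26, adjusted p = 0.074, and 0.94 ± 0.33, adjusted p = 0.058, in limma), although no library of the 2 day 1 groups overlapped for either gene. Tfrc, the transferrin receptor for iron uptake, had 82.2, 77.5 and 62.9 CPM at 5 µM day 1, 169, 146 and 162 CPM at 0 µM day 1, and 275, 249 and 280 CPM at day 0 (-1.85). It was lower at 5 than at 0 µM on day 1 (-1.10 ± 0.10, adjusted p = 1.1e-10 in limma). Slc40a1, the iron exporter ferroportin, had 33.8, 44.8 and 39.1 CPM at 5 µM day 1 against 2.07, 4.92 and 5.47 CPM at day 0 (3.03). It was not separated from 0 µM day 1 (0.46 ± 0.22, adjusted p = 0.18 in limma).

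Of 28 p53 targets, 14 rose and 5 fell at 5 µM day 1 (median 0.34), whereas 11 rose and 12 fell at 0 µM day 1 (median -0.12). Against 0 µM day 1, 12 were higher and 2 lower at 5 µM (median 0.39, and 1 lower without replicate 3), where 4.29% and 9.41% of all genes were. Cdkn1a, given above, was among those lower (-0.30, adjusted p = 0.019 in limma), a call lost without replicate 3. The 5 targets that fell against day 0 at 5 µM were Gdf15 (-1.49), Sesn2 (-0.85), Plk3 (-0.80), Aen (-0.72) and Rps27l (-0.54). Trp53inp1, a p53 cofactor in stress and autophagy, had 113, 116 and 110 CPM at 5 µM day 1, 63.3, 49.4 and 49.7 CPM at 0 µM day 1, and 11.5, 13.3 and 12.5 CPM at day 0. It rose by 3.09 ± 0.13 (adjusted p = 9.8e-20 in limma) and was above 0 µM day 1 by 1.05 (adjusted p = 2.4e-07 in limma). Gadd45a, a growth arrest and repair gene, had 88.8, 87.9 and 76.3 CPM at 5 µM day 1 against 9.54, 11.6 and 9.74 CPM at day 0 (2.92). It averaged 67.3 CPM at 0 µM day 1 (0.32, adjusted p = 0.047 in limma). Eda2r, a receptor of the TNF family, had 169, 158 and 128 CPM at 5 µM day 1 against 23.6, 29.9 and 45.6 CPM at day 0 (2.21). These 3 rose at 0 µM day 1 as well, by 2.03, 2.60 and 1.77. Mdm2, the ligase that limits p53, differed in kind, with 105, 114 and 90.3 CPM at 5 µM day 1, 63.1, 55.4 and 71.7 CPM at 0 µM day 1, and 87, 102 and 113 CPM at day 0. It fell at 0 µM day 1 (-0.66, adjusted p = 1e-06 in limma) and was not separated from day 0 at 5 µM (0.03 ± 0.10, adjusted p = 0.81 in limma), a difference between the day 1 groups of 0.70 (adjusted p = 3.2e-06 in limma).

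**Figure D5:**
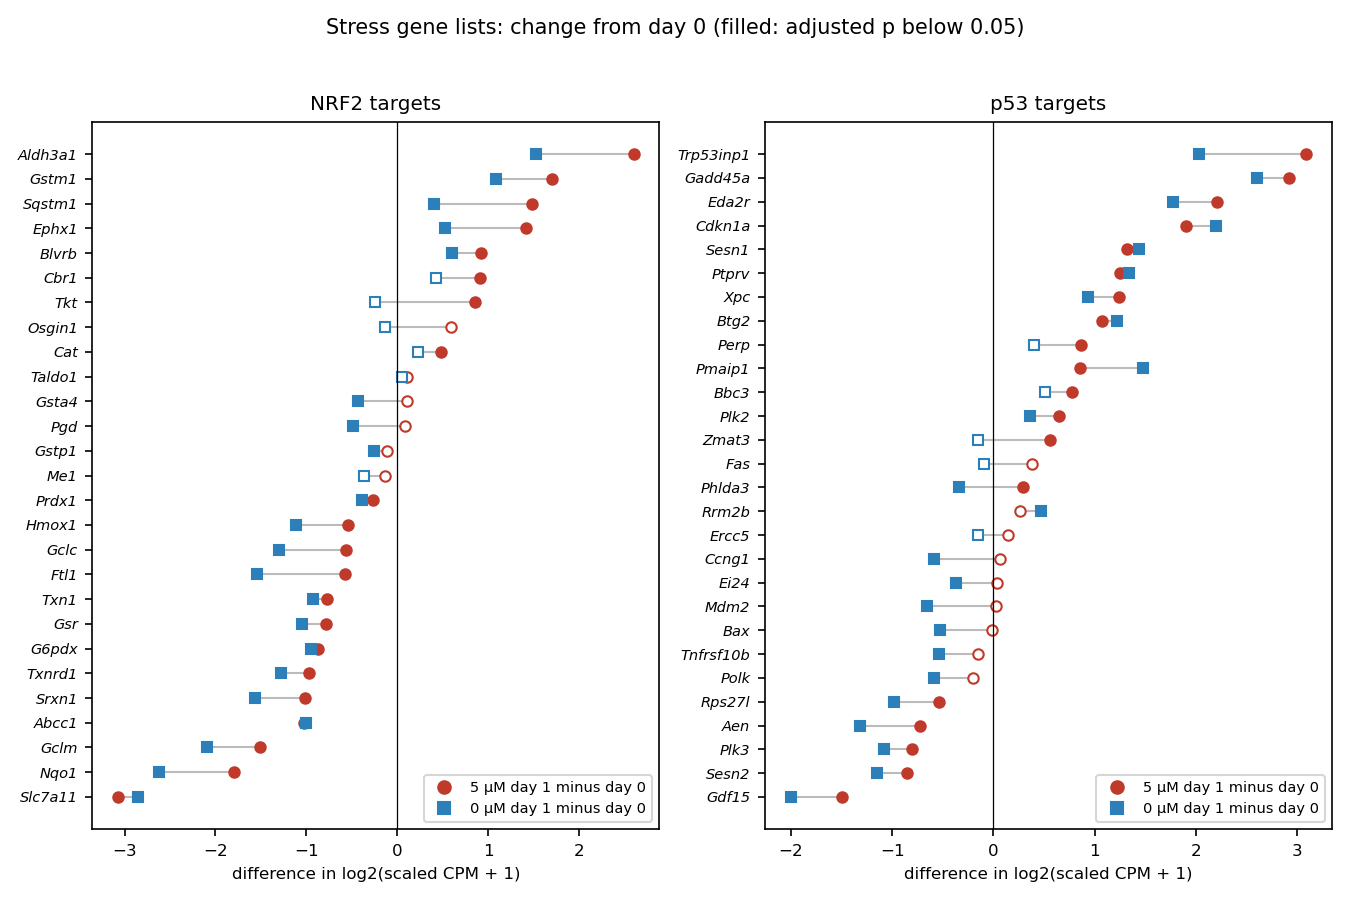
Log2 difference from day 0 of each tested NRF2 target and p53 target at 5 µM day 1 (red) and 0 µM day 1 (blue), filled where the adjusted p was below 0.05 in limma. Values at 5 µM lay above those at 0 µM for most genes, with 14 NRF2 targets and 12 p53 targets called higher at 5 µM than at 0 µM on day 1.

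Of 31 DNA repair genes, 4 rose and 21 fell at 5 µM day 1 (median -1.10), and 4 rose and 21 fell at 0 µM day 1 (median -0.79). In limma, 1 was higher and 2 were lower at 5 µM than at 0 µM on day 1, and without replicate 3, 2 were higher and 5 lower. In edgeR, 2 were higher and 1 was lower. Xpa, which verifies damage in nucleotide excision repair, had 18.3, 21.7 and 15.9 CPM at 5 µM day 1 against 8.82, 7.24 and 6.72 CPM at day 0 (1.19, adjusted p = 8e-06 in limma). It averaged 12.1 CPM at 0 µM day 1 (0.58, adjusted p = 0.052 in limma), a difference that was called without replicate 3 (0.68, adjusted p = 0.044 in limma) and in edgeR (0.63, adjusted p = 0.045).

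Chaperones of the endoplasmic reticulum fell at 5 µM day 1 and were below both other groups. Of 19 genes, 16 fell and 2 rose at 5 µM day 1 (median -0.64), with 15 and 1 without replicate 3, whereas 5 fell and 2 rose at 0 µM day 1 (median -0.14). Set directly against 0 µM day 1, 15 were lower at 5 µM and 0 higher (median -0.56), where 9.41% of all genes were lower. Hspa5, BiP, the Hsp70 of the endoplasmic reticulum, had 335, 314 and 316 CPM at 5 µM day 1, 743, 738 and 717 CPM at 0 µM day 1, and 858, 812 and 851 CPM at day 0. It fell by 1.38 ± 0.07 against day 0 (adjusted p = 6.1e-18 in limma) and was lower than at 0 µM on day 1 (-1.19 ± 0.07, adjusted p = 3.1e-15 in limma). Hsp90b1, the Hsp90 of that compartment, had 434, 459 and 473 CPM at 5 µM day 1, 737, 718 and 810 CPM at 0 µM day 1, and 1103, 989 and 1079 CPM at day 0 (-1.21). Calr, calreticulin, which binds calcium and glycoproteins, had 577, 543 and 520 CPM at 5 µM day 1, 1036, 1070 and 1124 CPM at 0 µM day 1, and 1243, 1253 and 1262 CPM at day 0 (-1.20). For all 3 genes, 5 µM day 1 was the lowest group without overlap. Pdia6, a disulfide isomerase, fell by 1.20 and averaged 141 ± 13.9 CPM at 5 µM day 1, 251 ± 11.3 CPM at 0 µM day 1 and 326 ± 16.6 CPM at day 0 (SD, n = 3 each).

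The promoters of these ER chaperone genes were read from RefSeq on the build GRCm38.p6, from 250 bases before to 50 bases after the start of each gene. The ER stress element, which is CCAAT and CCACG with 9 bases of any kind between them, was searched on both strands. It was found in the promoters of 7 of the 17 genes that matched by symbol (Calr, Canx, Creld2, Dnajc3, Hsp90b1, Hspa5 and Pdia6). All 7 fell at 5 µM day 1, and so did 7 of the other 10 matched genes. Over all 32851 promoters, 0.12% held it, which was 0.14% of genes, and it was in 0 of 20 matched ATF4-linked genes, 0 of 16 sterol genes and 0 of 12 heat shock genes. A match describes letters in this window and is not evidence of binding. The shares describe the lists, and what part the element has in the fall was not tested. The promoters of the 3 genes given above are shown 5′ to 3′ on the strand of the gene, with the element in capitals on whichever strand it was found. They lie at chr2:34771840-34772139 on the plus strand for Hspa5, chr10:86705395-86705694 on the minus strand for Hsp90b1, and chr8:84846882-84847181 on the minus strand for Calr.
Hspa5: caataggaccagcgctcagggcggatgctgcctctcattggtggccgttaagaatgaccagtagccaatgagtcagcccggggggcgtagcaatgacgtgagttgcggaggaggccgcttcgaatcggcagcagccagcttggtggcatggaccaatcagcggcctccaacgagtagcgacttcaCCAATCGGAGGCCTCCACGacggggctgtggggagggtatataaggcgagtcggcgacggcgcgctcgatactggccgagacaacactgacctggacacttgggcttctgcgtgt
Hsp90b1: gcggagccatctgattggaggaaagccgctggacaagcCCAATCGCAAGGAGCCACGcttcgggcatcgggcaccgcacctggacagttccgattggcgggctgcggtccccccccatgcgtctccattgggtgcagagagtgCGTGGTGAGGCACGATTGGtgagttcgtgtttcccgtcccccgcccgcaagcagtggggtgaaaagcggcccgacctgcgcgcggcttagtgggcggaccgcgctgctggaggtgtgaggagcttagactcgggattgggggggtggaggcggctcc
Calr: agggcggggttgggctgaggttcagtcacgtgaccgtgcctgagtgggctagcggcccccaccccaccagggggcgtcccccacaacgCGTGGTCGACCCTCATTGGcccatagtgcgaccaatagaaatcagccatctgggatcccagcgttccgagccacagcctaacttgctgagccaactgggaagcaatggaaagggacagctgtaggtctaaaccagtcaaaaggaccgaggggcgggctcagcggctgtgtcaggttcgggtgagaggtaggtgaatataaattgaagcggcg

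The element occurs 1 time in the promoters of Hspa5 and Calr, and 2 times, in opposite orientations, in that of Hsp90b1.

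Of 24 genes linked to ATF4, the factor of amino acid shortage, 18 fell and 1 rose at 5 µM day 1 (median -1.44), and 19 fell and 1 rose at 0 µM day 1 (median -1.08). Of these, 11 were lower and 2 higher at 5 µM than at 0 µM on day 1. Mthfd2, a mitochondrial one-carbon enzyme, had 3.67, 8.3 and 18.4 CPM at 5 µM day 1, 24.8, 33.7 and 27.2 CPM at 0 µM day 1, and 127, 124 and 142 CPM at day 0. It fell by 3.80 ± 0.25 (adjusted p = 6.4e-15 in limma) and was lower than 0 µM day 1 (-1.63, adjusted p = 7.1e-06 in limma). Asns, asparagine synthetase, had 16.4, 18 and 28.2 CPM at 5 µM day 1, 37.2, 39.9 and 47.3 CPM at 0 µM day 1, and 220, 239 and 209 CPM at day 0 (-3.39). The 3 groups stood in the same order for both. The gene of the list that rose was Vldlr, a lipoprotein receptor, with 15.9, 25.1 and 17.6 CPM at 5 µM day 1, 7.63, 4.28 and 7.73 CPM at 0 µM day 1, and 2.11, 1.26 and 1.72 CPM at day 0. At 1.45 ± 0.40 above 0 µM day 1 (adjusted p = 0.012 in limma) it was the gene furthest above unexposed day 1 cells among those named by rule. Of 15 heat shock genes, 8 fell and 1 rose at 5 µM day 1 (median -0.23), 9 fell and 1 rose at 0 µM day 1, and 0 were called between the day 1 groups in limma (1 was higher in edgeR, and at an unadjusted p below 0.05 in limma 2 were higher and 2 lower). Hspd1, the mitochondrial chaperonin, had 407, 363 and 332 CPM at 5 µM day 1 against 1181, 1157 and 1204 CPM at day 0 (-1.69). It averaged 360 CPM at 0 µM day 1.

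Genes of sterol synthesis rose at 5 µM day 1. Of 23 genes, 17 rose and 0 fell at 5 µM day 1 (median 0.36), and 21 rose and 0 fell at 0 µM day 1 (median 1.00). Between the day 1 groups, 16 were lower and 0 higher at 5 µM (median -0.44), where 9.41% of all genes were lower. Hmgcs1, which makes the precursor of mevalonate, had 344, 326 and 278 CPM at 5 µM day 1, 495, 390 and 468 CPM at 0 µM day 1, and 178, 177 and 177 CPM at day 0 (0.82 against day 0 and -0.51 between the day 1 groups). Fdft1, squalene synthase, had 213, 189 and 173 CPM at 5 µM day 1 against 69.1, 67.7 and 71.3 CPM at day 0 (1.45). Replicate 3 was the lowest 5 µM library for both, still above day 0. Mvd, the decarboxylase of mevalonate, had 31.3, 38.6 and 39.1 CPM at 5 µM day 1 against 8.01, 13.8 and 9.74 CPM at day 0 (1.72). It was not separated from 0 µM day 1 (-0.14 ± 0.17, adjusted p = 0.67 in limma).

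Matrix genes turned in both directions. Of 32 tested collagens and matrix genes, 11 rose and 10 fell at 5 µM day 1 (median 0.01), and 15 rose and 5 fell at 0 µM day 1 (median 0.26). At 5 µM, 19 were lower and 2 higher than at 0 µM on day 1 (median -0.56), with 1 higher without replicate 3. Over all genes, 9.41% were lower and 4.29% higher. The list shares Dcn and Col3a1 with the fibroblast markers, whose summed level given above was higher in both day 1 groups than at day 0. Mmp2, a gelatinase, had 179, 174 and 142 CPM at 5 µM day 1 against 36.6, 28.5 and 28.8 CPM at day 0 (2.37). It averaged 206 CPM at 0 µM day 1 (-0.33). Tnc, tenascin C, had 76.6, 103 and 94.3 CPM at 5 µM day 1, 211, 250 and 203 CPM at 0 µM day 1, and 458, 459 and 475 CPM at day 0 (-2.34). The difference of Mmp2 from 0 µM day 1 lost its call without replicate 3 (-0.22, adjusted p = 0.21 in limma) and in edgeR (-0.31, adjusted p = 0.051), while Tnc was under both other groups without overlap. Col5a2, a chain of the fibril-forming collagen V, had 324, 335 and 287 CPM at 5 µM day 1, 563, 523 and 530 CPM at 0 µM day 1, and 393, 424 and 426 CPM at day 0, so it fell at 5 µM (-0.40, adjusted p = 0.00093 in limma) and rose at 0 µM (0.38, adjusted p = 0.0015 in limma). Col6a3, a chain of collagen VI, fell by 1.37 at 5 µM day 1 and was not called at 0 µM day 1 (-0.28, adjusted p = 0.099 in limma).

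Of 15 smooth muscle genes and targets of SRF and YAP, 9 fell and 2 rose at 5 µM day 1 (median -0.67), and 7 fell and 5 rose at 0 µM day 1 (median 0.02). The count that rose at 5 µM was 1 without replicate 2 of that group, and 1 without replicate 1 or replicate 3 of day 0. Between the day 1 groups, 9 were lower and 0 higher at 5 µM (median -0.43, and 8 lower without replicate 3), where 9.41% of all genes were lower. Tagln, the actin-binding transgelin, had 15.5, 19.5 and 19.8 CPM at 5 µM day 1, 47.1, 41.5 and 46.1 CPM at 0 µM day 1, and 138, 159 and 152 CPM at day 0 (-2.97). Acta2, smooth muscle actin, which differentiating myoblasts also make, had 508, 477 and 434 CPM at 5 µM day 1, 956, 970 and 1044 CPM at 0 µM day 1, and 736, 819 and 747 CPM at day 0. It fell at 5 µM (-0.70 ± 0.09, adjusted p = 2.7e-08 in limma) and rose at 0 µM (0.37, adjusted p = 0.0006 in limma). Ctgf, a YAP target, fell by 2.88 at 5 µM day 1 and by 2.31 at 0 µM day 1.

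Genes of the insulin-like growth factor axis, which sustains differentiation, rose in both day 1 groups. Of 14 tested, 12 rose and 0 fell at 5 µM day 1 (median 1.21), and 12 rose and 0 fell at 0 µM day 1 (median 1.39). Between the day 1 groups, 5 were lower and 0 higher at 5 µM (median -0.28, and 4 lower in edgeR), where 9.41% of all genes were lower in limma. Igfbp5, the binding protein that myoblasts secrete as they differentiate, had 3902, 4603 and 3925 CPM at 5 µM day 1, 7080, 5854 and 6946 CPM at 0 µM day 1, and 1019, 977 and 977 CPM at day 0. It rose by 2.06 ± 0.11 (adjusted p = 8.1e-17 in limma) and was lower than 0 µM day 1 (-0.68, adjusted p = 3.6e-05 in limma). Igf2, the autocrine growth factor of myoblasts, had 1.45, 2.54 and 47.4 CPM at 5 µM day 1, 28.7, 15.1 and 25.2 CPM at 0 µM day 1, and 0.675, 1.56 and 0.104 CPM at day 0. Its value in replicate 3 was far above the other 5 µM libraries, and its rise of 2.16 (adjusted p = 0.00069 in limma) was 0.81 without that library (adjusted p = 0.0054 in limma). Without it, Igf2 lay 2.98 on the log2 scale under 0 µM day 1 (difference -2.98, adjusted p = 2.3e-11 in limma), against -1.63 (adjusted p = 0.029) with it. In edgeR with all libraries that difference was not called (-0.41, adjusted p = 0.71). Of 15 genes of TGF-beta and BMP signalling, 5 rose and 6 fell at 5 µM day 1 (3 in edgeR, where 21.5% of all genes fell), and 6 rose and 5 fell at 0 µM day 1. Inhba, a subunit of activin, had 5.71, 8.96 and 4.13 CPM at 5 µM day 1 against 36.7, 28.9 and 30.3 CPM at day 0 (-2.23), and Bmp4, a BMP ligand, had 9.81, 11.2 and 7.94 CPM at 5 µM day 1 against 1.44, 0.842 and 1.3 CPM at day 0 (2.28). Neither was separated from 0 µM day 1 (0.17 ± 0.25, adjusted p = 0.73, and 0.26 ± 0.26, adjusted p = 0.57, in limma).

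Of 18 immediate early genes, 7 rose and 8 fell at 5 µM day 1 (median -0.29), and 8 rose and 6 fell at 0 µM day 1 (median 0.37). Fosl1, an AP-1 subunit of growing cells, had 4.39, 9.53 and 7.34 CPM at 5 µM day 1 against 57.7, 80.4 and 73.5 CPM at day 0 (-3.18). It averaged 6.72 CPM at 0 µM day 1. Dusp6, a phosphatase that reports ERK activity, had 19, 18.8 and 18.8 CPM at 5 µM day 1, 34.1 CPM on average at 0 µM day 1, and 47.7, 47.9 and 46.5 CPM at day 0. It was lower at 5 than at 0 µM on day 1 (-0.81, adjusted p = 0.0021 in limma), which Fosl1 was not (0.02 ± 0.31, adjusted p = 0.99 in limma). Of 12 genes of cytokines and chemokines, 6 fell and 1 rose at 5 µM day 1 (median -0.79), with 2 that rose in 5 of the alternative fits, and 6 fell and 2 rose at 0 µM day 1. Hbegf, an EGF receptor ligand, fell by 2.78, and Cxcl12, a chemokine of muscle progenitors, rose by 1.93.

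Of 12 genes of muscle proteolysis and autophagy, 9 rose and 0 fell at 5 µM day 1 (median 1.15), and 9 rose and 0 fell at 0 µM day 1 (median 0.98). Fbxo32, atrogin-1, a ubiquitin ligase of muscle, had 226, 216 and 177 CPM at 5 µM day 1 against 23.6, 16.6 and 20.1 CPM at day 0 (3.30). Its difference from 0 µM day 1 (167 CPM on average) missed the threshold with all libraries (0.32 ± 0.13, adjusted p = 0.099 in limma) and passed it without replicate 3 (0.42, adjusted p = 0.04 in limma). Foxo3, the factor that drives it, had 81.7, 92.7 and 93.2 CPM at 5 µM day 1, 78.5, 57.5 and 57 CPM at 0 µM day 1, and 31.2, 21.7 and 32.5 CPM at day 0 (1.63), and was higher at 5 than at 0 µM on day 1 (0.48, adjusted p = 0.0057 in limma). Trim63, MuRF1, the other ligase of the pair, had 4.22, 2.25 and 2.17 CPM at 5 µM day 1, 9.41, 6.92 and 9.54 CPM at 0 µM day 1, and 0.045, 0 and 0.0521 CPM at day 0, and was lower at 5 than at 0 µM on day 1 (-1.34, adjusted p = 0.00011 in limma). Both ligases rose above day 0.

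Some genes rose or fell against day 0 at 5 µM day 1 beyond their level in unexposed day 1 cells. Among genes that rose against day 0, the largest excesses over 0 µM day 1 after Vldlr were in 7 genes, of which Snhg5, a host gene of snoRNAs, had 28.4, 32.3 and 22.9 CPM at 5 µM day 1, 11, 9.9 and 11.6 CPM at 0 µM day 1, and 11.5, 8.5 and 12.2 CPM at day 0. The day 1 groups differed by 1.28 ± 0.19 (adjusted p = 7.3e-06 in limma), and 0 µM day 1 overlapped day 0. Snhg1, another snoRNA host gene, had 47, 37.3 and 30.8 CPM at 5 µM day 1, 18.8, 15.7 and 16.6 CPM at 0 µM day 1, and 21.9, 22.8 and 24.4 CPM at day 0 (1.11 between the day 1 groups). Mapk8ip3, a scaffold of JNK signalling and axonal transport, had 20.6, 25.7 and 31.5 CPM at 5 µM day 1 and 11.2 CPM on average at 0 µM day 1 (1.13). The others were the histone genes Hist3h2a (1.22) and Hist2h3c1 (1.11), whose reads near-identical copies may share, Zfp658 (1.17, not called in edgeR, adjusted p = 0.12), a zinc finger protein, and Lonrf1 (1.11), a RING finger protein. Snhg5, Snhg1, Mapk8ip3, Zfp658 and Lonrf1 had no call at 0 µM day 1 against day 0 in limma. Among genes that fell against day 0, the largest shortfalls under 0 µM day 1 included those of Fkbp11, a prolyl isomerase of the secretory pathway, and Sema7a, a membrane-anchored semaphorin. Fkbp11 had 3.24, 3.85 and 1.69 CPM at 5 µM day 1, 10.1, 11.8 and 11.9 CPM at 0 µM day 1, and 20.3, 17 and 16.9 CPM at day 0 (-1.68 between the day 1 groups, adjusted p = 0.00066 in limma). Sema7a had 18, 9.41 and 14 CPM at 5 µM day 1, 36.4, 48.4 and 41.6 CPM at 0 µM day 1, and 66.6, 78 and 77.8 CPM at day 0 (-1.57, adjusted p = 1.5e-08 in limma).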

How the data were processed

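The deposited table holds a signal per gene and library that the authors named CPM, with 1 column for each of the 30 libraries. Columns summed to 892246 to 1079916, so the authors had scaled the CPM further. All deposited values (100%) were multiples of the worth of 1 read within 0.02 of a read, and dividing by it gave read counts. Per the labels, TRIzol was used for the RNA and a TruSeq RNA kit of Illumina for the libraries. Aligner, annotation, build, strand and scaling are not given in these sources, so reads of overlapping or near-identical genes may be shared.

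Genes with at least 1 CPM in at least 3 libraries (12946 of 48709 listed) were fitted as log2(CPM + 1) in limma 3.58.1 (R 4.3.3) with 1 mean for each of the 10 groups and the variance following the mean level. Calls were made where the p, adjusted by Benjamini-Hochberg over all genes, was below 0.05. Contrasts were 5 µM day 1 minus day 0, 0 µM day 1 minus day 0, and 5 µM day 1 minus 0 µM day 1. They share libraries, so their values are set side by side and not related to each other. Alternatives were edgeR 4.0.16 (quasi-likelihood) and DESeq2 1.42.0 on the recovered reads, other filters, pseudocounts and scalings, a replicate term and each library left out. The fit in edgeR without replicate 3 of 5 µM day 1 was chosen after seeing the data. The fits were tested on simulated data, with 50 genes changed at each of 1.5, 2, 4 and 8-fold. There 17.7% of limma calls (36 of 203) and 5.2% of edgeR calls (9 of 172) were false at an adjusted p below 0.05. Limma thus made a larger share of false calls than its threshold allows, so its calls are less firm than the threshold implies. Where the false calls lay was not examined. Far fewer genes changed in the simulation than were called in the data, so these shares need not hold there.

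The comparison and the gene lists were chosen with earlier results of these data known. Named genes were 40 key genes, the 8 largest rises and falls against day 0, the 8 largest against 0 µM day 1 of those with the same sign against day 0, and up to 4 called members of each list with those against its majority direction. Genes ranked by size had to be called with and without replicate 3, reach 5 CPM in the higher group and not overlap between replicates. Some genes named by these steps are left out here. Of 682 list entries, 3 were not in the table.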

Additional observations from a re-analysis of the deposited data

Results flagged for a closer look

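Among the genes named by rule and the members of the gene lists, 9 had day 1 changes called in opposite directions at 5 µM and 0 µM in limma. For these 9 the difference between the day 1 groups was called as well. The search did not cover all 12946 tested genes, so 9 is not a count over the whole table. Tnnt2, a troponin T, fell by 1.11 at 5 µM and rose by 1.14 at 0 µM (difference -2.25). Mef2c, a MEF2 factor, fell by 1.05 and rose by 0.64 (difference -1.69). Tead4, a TEA-domain factor, fell by 0.67 and rose by 0.87 (difference -1.54). Acta2, smooth muscle actin, fell by 0.70 and rose by 0.37 (difference -1.07). Col5a2, a collagen V chain, fell by 0.40 and rose by 0.38 (difference -0.77).

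The other 4 lie outside the rule for named genes and were chosen after their values were seen. Myl9, a myosin light chain of smooth muscle and non-muscle cells, had 29.4, 35.1 and 22.7 CPM at 5 µM day 1, 59.3, 64.5 and 65.2 CPM at 0 µM day 1, and 41.4, 38.4 and 43.1 CPM at day 0 (difference between the day 1 groups -1.11). Ncam1, an adhesion molecule, had 46.8, 50.9 and 60.4 CPM at 5 µM day 1, 108, 94 and 120 CPM at 0 µM day 1, and 66.3, 56.8 and 75.9 CPM at day 0 (-1.01), where 5 µM day 1 and day 0 overlapped. Myof, myoferlin of membrane fusion and repair, had 274, 320 and 278 CPM at 5 µM day 1, 494, 451 and 474 CPM at 0 µM day 1, and 410, 390 and 407 CPM at day 0 (-0.70). Phlda3, a p53 target, turned the other way, with 163, 170 and 140 CPM at 5 µM day 1, 96.9, 109 and 97.6 CPM at 0 µM day 1, and 124, 142 and 120 CPM at day 0 (0.64). All 9 kept their calls in the 3 contrasts without replicate 3 of 5 µM day 1.

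Transcripts of other tissues were the second pattern. In replicate 3 of 5 µM day 1, lung epithelium markers summed to 489 CPM and leukocyte markers to 365 CPM, whereas the day 0 libraries stood at 0.365 to 1.39 CPM and 0 to 0.585 CPM. Of the series, replicate 1 of 2 µM day 1 also held extra transcripts, with 82 genes at 5 CPM or more that were under 1 CPM in the other 29 libraries.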

How the results depend on the processing

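The counts of genes called against day 0 stayed within 1.5 times their main value under every alternative run. At 5 µM day 1, 2964 to 3339 genes rose and 2862 to 3127 fell with 1 library left out, and 3010 to 3568 rose and 2599 to 3175 fell under the other settings. Against 0 µM day 1, 364 to 579 genes were higher and 940 to 1228 lower at 5 µM with 1 library left out. The lowest of these, 364 against 556, came without replicate 2 of 0 µM day 1, and quantile normalization gave 853 higher. The replicate numbers did not pair the samples (deviations of same-numbered samples correlated at -0.05 to 0.05), and with a replicate block 3337 genes rose and 3130 fell at 5 µM day 1, and 556 were higher and 1216 lower than at 0 µM day 1. Of the genes limma called against day 0 at 5 µM day 1, edgeR also called 95.4% of those that rose and 89% of those that fell, and between the day 1 groups 89.7% of those higher and 87.3% of those lower. The log2 differences of 11 genes changed sign in some settings, and the cause was not tested. With 1 library left out, Mdm2 against day 0 (0.03 with all) ran from -0.07 without replicate 1 of day 0 to 0.13, and was -0.04 without replicate 2 of 5 µM day 1. For 5 µM against 0 µM on day 1, Id1 (-0.16) ran from -0.32 to 0.02, reaching 0.02 without replicate 2 of 0 µM day 1. Ccna2, cyclin A2 (-0.03), ran from -0.14 to 0.10 without replicate 2 of 0 µM day 1, and was 0.05 without replicate 1 of 5 µM day 1 and 0.02 with quantile normalization. Myc (0.03) ran from -0.10 to 0.16, and was -0.01 without replicate 1 of 5 µM day 1. Mki67 (0.78) ran from -0.34 without replicate 3 of 5 µM day 1 to 1.37, and was -0.34 without both libraries with extra transcripts and -0.39 in edgeR without replicate 3. Sepp1 (0.12) ran from -0.05 without replicate 3 of 5 µM day 1 to 0.26, and was -0.05 without both of those libraries and -0.04 in edgeR without replicate 3. Fosl1 (0.02) ran from -0.20 without replicate 2 of 5 µM day 1 to 0.28, and was -0.03 without replicate 3, without both libraries and without replicate 1 of 0 µM day 1. Bmp4 (0.26) ran from -0.15 to 0.49 and Lrp4 (-0.09) from -0.33 to 0.12, both changing sign without replicate 1 of 0 µM day 1. Inhba (0.17) ran from -0.08 without replicate 2 of 5 µM day 1 to 0.39, and Nop56 (0.04) from -0.00 without replicate 1 of 5 µM day 1 to 0.10. Over all settings, the 218 genes run against day 0 lost a call 40 times and gained one 8 times, and the 98 genes run between the day 1 groups lost a call 72 times and gained one 36 times. Plk3, Dnajb9 and Lox lost their call against day 0 without replicate 3. Of the list counts, 1393 stayed within 1.5 times their main value and 33 did not. Of replicate pairs with 11 to 20 reads in one library, 39% were listed at 0 in the other, which limits what low values show. Pairs with replicate 3 of 5 µM day 1 are part of that share.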

Other observations

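Host genes of snoRNAs, chosen after their values were seen, moved in a way the lists above did not cover. Of 14 tested (the Snhg genes, Gas5 and Zfas1), 7 rose and 1 fell at 5 µM day 1 against day 0 (median 0.48), 3 rose and 3 fell at 0 µM day 1 (median -0.29), and 8 were higher and 0 lower at 5 µM than at 0 µM on day 1 (median 0.82) in limma, where 4.29% of all genes were higher. The set includes Snhg5 and Snhg1, which were ranked above by their excess over 0 µM day 1. Because the set was chosen from these same values, its count describes these genes and is no test of them. Zfas1 had 192, 164 and 129 CPM at 5 µM day 1, 78.2, 70.2 and 87.7 CPM at 0 µM day 1, and 26.4, 34.1 and 28 CPM at day 0, a rise of 2.41 against day 0 and a difference of 1.02 ± 0.15 from 0 µM day 1 (adjusted p = 4.2e-06 in limma). Gas5 had 148, 150 and 111 CPM at 5 µM day 1, 72.2, 63.3 and 90.3 CPM at 0 µM day 1, and 50.8, 63.2 and 56.5 CPM at day 0 (1.24 and 0.85). Replicate 3 was the lowest 5 µM library for both, and above every library of the other groups. Snhg4 differed in shape, with 8.66, 4.3 and 5.86 CPM at 5 µM day 1, 1.5, 0.917 and 1.98 CPM at 0 µM day 1, and 9.81, 7.28 and 5.37 CPM at day 0. The strand of the libraries is not given in the sources used here, so reads of overlapping genes may add to these values. Several of these genes are known to carry many snoRNAs in their introns and short reading frames in their exons, and no value here bears on either.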
